A study of Mus musculus with 6 samples.

Results

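The NDRG (N-myc downstream regulated gene) family of the mouse has 4 members, Ndrg1, Ndrg2, Ndrg3 and Ndrg4, and their mRNA was examined in GC-2spd cells grown in normoxia or hypoxia. The members were chosen by gene symbol, 4 of 43412 annotated genes, and the family was picked because its response to hypoxia in these same libraries was already known. The difference of each member between the groups is therefore given as a description, without a test, and nothing rests on it. GC-2spd is an immortalised mouse line derived from spermatocytes with a viral T antigen and a mutant p53. Polyadenylated RNA was sequenced from 3 libraries of cells kept at 21% oxygen (normoxia) and from 3 libraries of cells kept at 1% oxygen (hypoxia), which the study exposed for 48 hours. All 6 libraries come from this 1 line. The labels leave unstated whether replicates were cultured separately, so each p-value below measures only the spread between these libraries.

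NDRG proteins share an alpha/beta hydrolase fold without a known catalytic activity and take part in growth control, vesicle trafficking and stress responses. NDRG1 is a long-known product of hypoxic cells, is repressed by MYC and is phosphorylated by the kinases SGK1 and GSK3, and its loss causes a demyelinating form of Charcot-Marie-Tooth disease. NDRG3 protein is hydroxylated by the oxygen sensor PHD2 (gene Egln1), handed to VHL for degradation, and binds lactate, after which it engages RAF kinases. NDRG2 is best known from astrocytes, and NDRG4 from neurons and heart.

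The family is spread over 4 chromosomes. In the mm10 coordinates of the deposited tables, Ndrg1 (ENSMUSG00000005125) occupies chr15:66929321-66969640 on the minus strand and Ndrg2 (ENSMUSG00000004558) occupies chr14:51905271-51913488 on the minus strand. Ndrg3 (ENSMUSG00000027634) lies at chr2:156927345-156992056 on the minus strand and Ndrg4 (ENSMUSG00000036564) at chr8:95676980-95715119 on the plus strand. The longest exact run of bases shared by transcripts of any 2 members was 33 bases, between Ndrg2 and Ndrg4, and the runs that Ndrg1 shared with the others were 18 to 21 bases.

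RefSeq promoter windows, from 250 bases before to 50 bases after a start site, matched 3 members (Ndrg2, Ndrg3 and Ndrg4, not Ndrg1) with 9 windows in build GRCm38.p6. The 5 printed here are the pair of Ndrg2 windows between which the assembled transcripts of the groups differed, the Ndrg3 window nearest its assembled start, and an Ndrg4 window upstream of and one at its assembled starts. Each reads 5′ to 3′ on the strand of the gene. Capitals mark the core of hypoxia response elements, ACGTG, and its common variant, GCGTG, on either strand. The E-box core that MYC and MAX recognise, CACGTG, contains the former on both strands.
Ndrg2, start site 51913488, chr14:51913439-51913738, minus strand: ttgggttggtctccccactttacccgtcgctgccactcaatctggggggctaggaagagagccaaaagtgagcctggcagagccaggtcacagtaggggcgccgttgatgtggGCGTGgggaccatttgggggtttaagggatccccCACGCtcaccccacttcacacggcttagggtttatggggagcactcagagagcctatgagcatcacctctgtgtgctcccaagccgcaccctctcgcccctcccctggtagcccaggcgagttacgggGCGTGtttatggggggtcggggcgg
Ndrg2, start site 51914004, chr14:51913955-51914254, minus strand: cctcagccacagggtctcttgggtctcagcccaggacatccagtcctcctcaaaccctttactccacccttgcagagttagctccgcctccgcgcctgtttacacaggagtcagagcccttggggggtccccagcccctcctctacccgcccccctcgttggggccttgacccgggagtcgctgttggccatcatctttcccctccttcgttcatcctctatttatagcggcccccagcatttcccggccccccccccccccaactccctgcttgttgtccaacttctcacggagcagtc
Ndrg3, start site 156992111, chr2:156992062-156992361, minus strand: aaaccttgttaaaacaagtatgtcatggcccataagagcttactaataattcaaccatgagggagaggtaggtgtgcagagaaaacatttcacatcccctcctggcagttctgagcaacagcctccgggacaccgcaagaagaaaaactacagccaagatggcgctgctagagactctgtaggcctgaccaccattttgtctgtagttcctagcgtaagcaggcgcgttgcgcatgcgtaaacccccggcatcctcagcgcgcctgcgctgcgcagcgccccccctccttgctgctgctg
Ndrg4, start site 95677763, chr8:95677513-95677812, plus strand: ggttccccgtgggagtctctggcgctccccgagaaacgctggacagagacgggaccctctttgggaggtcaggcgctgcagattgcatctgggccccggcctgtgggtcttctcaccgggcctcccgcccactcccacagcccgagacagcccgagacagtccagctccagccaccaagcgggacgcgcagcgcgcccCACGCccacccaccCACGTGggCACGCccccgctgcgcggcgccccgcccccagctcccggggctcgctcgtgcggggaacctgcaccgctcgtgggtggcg
Ndrg4, start site 95703056, chr8:95702806-95703105, plus strand: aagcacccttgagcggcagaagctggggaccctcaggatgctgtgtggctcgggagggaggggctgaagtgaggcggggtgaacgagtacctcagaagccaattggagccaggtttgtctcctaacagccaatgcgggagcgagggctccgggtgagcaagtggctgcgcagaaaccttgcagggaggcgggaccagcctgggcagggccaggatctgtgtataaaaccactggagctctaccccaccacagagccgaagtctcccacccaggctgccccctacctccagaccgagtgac

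Of the 9 windows, 5 held ACGTG or GCGTG on either strand and 1 held CACGTG. Over all 32851 windows of the table, 43.8% held either of these cores, 19.6% held ACGTG, 32.4% held GCGTG and 7.15% held CACGTG. The Ndrg2 window at 51913488 had GCGTG 3 times, whereas the window at 51914004 had neither core. The printed Ndrg3 window had neither core, but the other Ndrg3 window, with start site 156991703, had GCGTG 2 times. The Ndrg4 window at 95677763 held ACGTG 2 times and GCGTG 2 times and was the only one with the E-box core. These matches describe letters and no bound site.

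Aligned sequence was not counted. It was inferred as 5.75 to 6.72 gigabases per library, from the median ratio of read coverage to FPKM over single-transcript genes. FPKM is a level scaled for length and aligned fragments. From 13551 to 13792 genes reached 1 TPM (a transcript level scaled for length and for the total of the library). None of 11 spermatocyte markers and none of 6 spermatid markers reached a mean of 1 TPM, and their summed levels were 0.341 to 1.18 TPM and 0 to 0.340 TPM so that these markers did not show the germ cell origin on the label. Of 9 fibroblast markers, 6 (Col1a1, Col1a2, Col3a1, Pdgfra, Pdgfrb and Vim) reached 1 TPM, summing to 3288 to 4244 TPM in normoxia and 6831 to 7051 TPM in hypoxia. Astrocyte markers (0 of 5) and endothelial markers (0 of 5) did not reach 1 TPM, whereas neuron (2 of 6), cardiomyocyte (1 of 5), Schwann cell (3 of 8), Sertoli cell (3 of 8), Leydig cell (2 of 6) and macrophage (3 of 6) markers did in part. The part of these marker levels in the results was not tested. In bulk RNA, fewer cells with a transcript and less of it per cell cannot be told apart.

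Ndrg1 was the most abundant member and the one with the widest gap between the groups. Its level was 77.2, 76.4 and 67.3 TPM in the 3 normoxia libraries and 600.7, 569.6 and 548.4 TPM in the 3 hypoxia libraries. The lowest hypoxia library lay far above the highest normoxia library. The mean level was 73.6 ± 5.48 TPM (SD, n = 3) in normoxia and 573 ± 26.3 TPM in hypoxia, a ratio of 7.78, and the log2 fold change of TPM + 1 was 2.94 with a standard error of 0.06. By level, Ndrg1 moved from rank 2378 to rank 221 of 13749 tested genes, and its log2 fold change ranked 5. Read coverage, the mean depth over the transcripts before any scaling, was 92.1 to 93.5 in normoxia and 720 to 854 in hypoxia, so this member was read deeply in both groups.

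Ndrg3, the member whose protein is controlled by oxygen and lactate, was the other one with higher mRNA in hypoxia. It stood at 39.7, 40.6 and 47.8 TPM in normoxia and at 58.7, 57.0 and 66.5 TPM in hypoxia. The groups did not overlap, and the third library of each group was its highest. Its mean level was 42.7 ± 4.45 TPM (SD, n = 3) against 60.7 ± 5.08 TPM, a ratio of 1.42, with a log2 fold change of 0.50 (standard error 0.09). That fold change ranked 1284 among the 13749 tested genes.

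Ndrg2 was a low-level transcript whose groups touched or separated depending on the scale. Its level was 10.4, 10.4 and 12.9 TPM in normoxia and 10.0, 8.83 and 9.63 TPM in hypoxia. All hypoxia libraries were below all normoxia libraries, but the highest hypoxia library lay nearer to the first and second normoxia libraries than the third normoxia library did. The means were 11.3 ± 1.45 TPM (SD, n = 3) and 9.49 ± 0.601 TPM, and the log2 fold change was -0.22 with a standard error of 0.10. After median-ratio scaling, which sets the middle gene of each library to the same level, the scaled values were 9.78, 10.0 and 12.2 in normoxia and 10.7, 9.28 and 9.88 in hypoxia. On that scale the groups overlapped.

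Ndrg4 had the lowest level of the family in every library. It was measured at 4.06, 4.80 and 3.97 TPM in normoxia and at 4.33, 2.47 and 3.43 TPM in hypoxia. The groups overlapped, with the first hypoxia library above 2 of the normoxia libraries. Mean levels were 4.28 ± 0.455 TPM (SD, n = 3) and 3.41 ± 0.933 TPM, and the log2 fold change was -0.28 with a standard error of 0.17. Coverage over the annotated transcripts was 1.09 to 1.48, whereas the Ndrg4 loci assembled by StringTie from the reads had a coverage of 7.63 to 10.2. In the first normoxia library, coverage was 1.23 at an FPKM of 1.63 for Ndrg4, but 27.5 at 4.20 for Ndrg2. Coverage was thus not on the same scale for each member and does not rank how deeply the members were read.

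**Figure D1:**
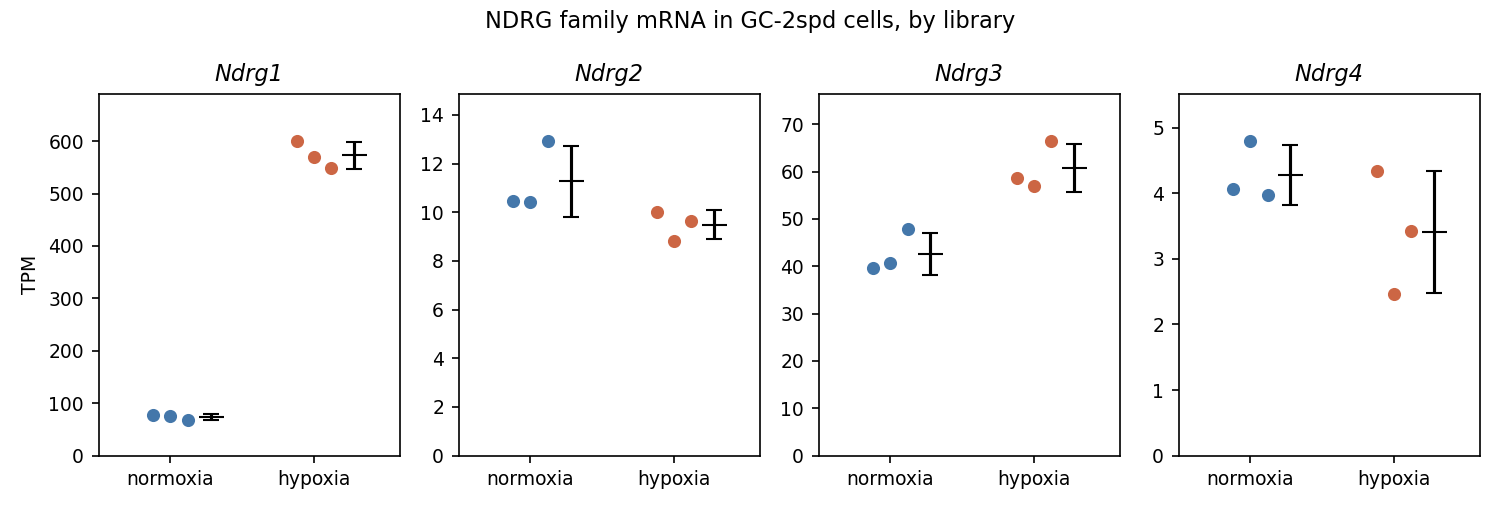
Levels of the 4 NDRG genes in TPM (vertical axis from 0, with its own range for each gene) in 3 normoxia and 3 hypoxia libraries of GC-2spd cells. Points are libraries, and bars are the mean and SD. The Ndrg1 libraries sit at 67.3 to 77.2 TPM in normoxia and 548.4 to 600.7 TPM in hypoxia, Ndrg3 is separated by less, the nearest Ndrg2 libraries lie close together, and Ndrg4 overlaps.

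In TPM, 3 of the 4 members had groups that did not overlap, 2 with hypoxia higher and 1 lower. Over all 13749 tested genes, 62.4% had groups that did not overlap (21.4% higher and 41% lower), and since the members were chosen with this contrast known, nothing is read from their count. By limma with Benjamini-Hochberg adjustment at 0.05, 54% of tested genes were called, 17.9% higher and 36.1% lower. The middle tested gene had a log2 fold change of -0.13. Relative to that middle value, the log2 fold changes were 3.08 for Ndrg1, 0.63 for Ndrg3, -0.09 for Ndrg2 and -0.15 for Ndrg4. After median-ratio scaling the middle value was 0.0014, and 3603 genes were called higher and 3622 lower, in place of 2463 higher and 4967 lower.

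**Figure D2:**
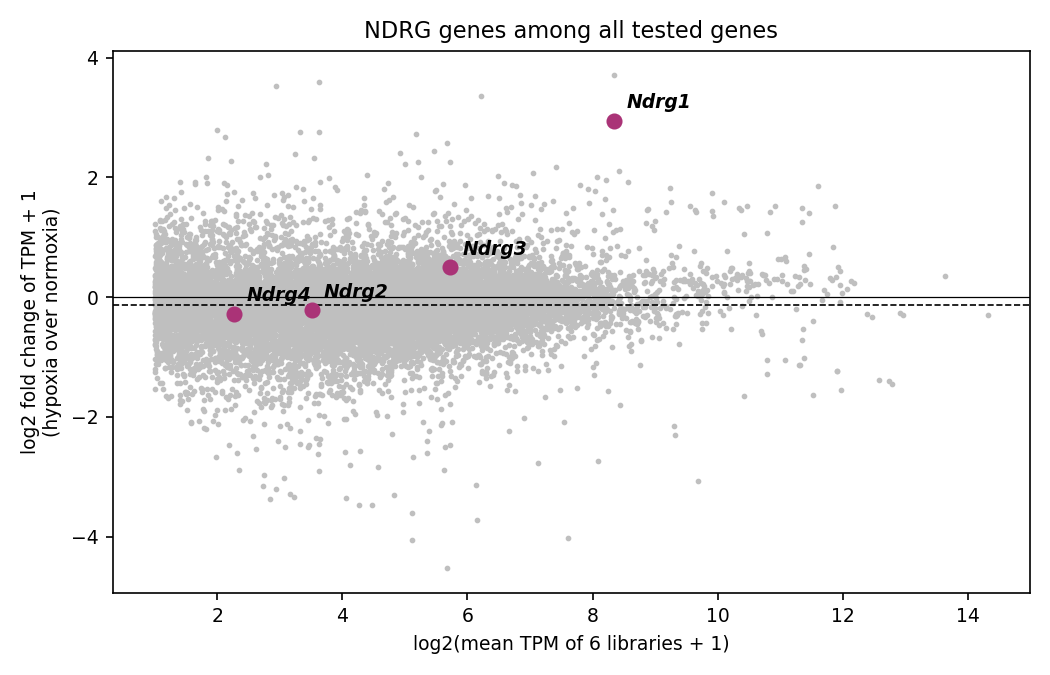
Log2 fold change of TPM + 1, hypoxia over normoxia (vertical axis), against log2 of the mean TPM + 1 over 6 libraries (horizontal axis) for 13749 tested genes (grey) with the NDRG genes in purple. The dashed line is the median of all genes at -0.13. Ndrg1 sits near the top edge at 2.94, Ndrg3 at 0.50, and Ndrg2 and Ndrg4 lie inside the main cloud.

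The order of levels was Ndrg1, Ndrg3, Ndrg2 and Ndrg4 in all 6 libraries. No library of a member reached into the range of its neighbour in this order within either group. The summed level of the family was 131.3, 132.2 and 132.0 TPM in normoxia and 673.7, 637.9 and 628.0 TPM in hypoxia. Ndrg1 supplied 55.8% ± 4.23 (SD, n = 3) of that sum in normoxia and 88.6% ± 1.10 in hypoxia, while the share of Ndrg3 was 32.4% ± 3.33 and 9.41% ± 1.03. The ratio of Ndrg1 to Ndrg3 was 1.41 to 1.95 in normoxia and 8.24 to 10.2 in hypoxia. Without Ndrg1, the other members summed to 58.2 ± 5.66 TPM in normoxia and 73.6 ± 5.67 TPM in hypoxia. The family total in hypoxia was thus mostly Ndrg1, followed by Ndrg3.

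The loci that StringTie assembled from the reads of each library were compared by their ends. Apart from Ndrg2 in hypoxia, every 5′ end coincided exactly with the start of an annotated GENCODE transcript. These ends may therefore follow the annotation, and they do not map where transcripts began. For Ndrg1 and Ndrg3 the assembled locus had the same ends in all 6 libraries, and the annotated transcripts held 98.7% to 99.9% of the level of the locus. For Ndrg2 the 5′ end was 51913488 in all 3 normoxia libraries, exactly at a RefSeq start site. In the hypoxia libraries it was 51913984, 51913962 and 51913990, which is 14 to 42 bases short of the RefSeq start site at 51914004. The Ndrg2 locus thus reached 474 to 502 bases farther upstream in hypoxia, from the first printed Ndrg2 window into the second. Annotated transcripts made up 98.3%, 93.1% and 98.1% of the level of the hypoxia loci and 100% of that of the normoxia loci, which does not measure the added stretch itself. Among 12070 tested genes with an assembled locus in all libraries, 24 (0.199%) reached at least 100 bases upstream in every hypoxia library and in no normoxia library, and 15 (0.124%) did the reverse. No read counts over the added stretch were used here, and the difference was noticed in these data and not tested.

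The Ndrg4 gene spans annotated start sites that lie far apart. Assembled loci began only near the downstream one, which does not show which sites were used. Their first base was 95703063 in the first normoxia library and all hypoxia libraries and 95703037 in the other two normoxia libraries, 7 and 19 bases from the RefSeq start site at 95703056. No assembled locus reached the windows at 95676974, 95677763 or 95678272, so the E-box core at 95677763 lies in a window upstream of all assembled Ndrg4 transcripts. At 4.33, 5.65 and 5.00 TPM in normoxia and 4.93, 4.42 and 4.14 TPM in hypoxia, the assembled Ndrg4 loci again overlapped between the groups. The second hypoxia library, lowest by annotated TPM, was no longer the lowest by assembled locus, where annotated transcripts held only 55.9% of its level.

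Oxygen sensing and VHL genes set the conditions under which NDRG3 protein is hydroxylated. Of 12 tested genes of this list, 4 rose and 2 fell, against 17.9% and 36.1% of all tested genes, and 6 were not called. The median log2 fold change was 0.13 against -0.13 for the middle tested gene. Egln1, which encodes PHD2, rose from 49.6 ± 1.43 to 212 ± 4.85 TPM (log2 fold change 2.08, limma adjusted p = 1.12e-06). Egln3, another prolyl hydroxylase, rose by 2.26 on the log2 scale (adjusted p = 2.94e-06), and Egln2 fell by 0.33 (adjusted p = 0.00223). Vhl, the substrate receptor that marks hydroxylated proteins for degradation, rose from 31.9 ± 2.46 to 65.0 ± 4.03 TPM (log2 fold change 1.00, adjusted p = 7.67e-05). Hif1a, the oxygen-regulated subunit of hypoxia-inducible factor, fell from 107 ± 3.00 to 70.9 ± 5.51 TPM (log2 fold change -0.59, adjusted p = 0.000346), and its partner Arnt rose by 0.41 (adjusted p = 0.000477). The genes of the ubiquitin ligase around VHL (Elob, Eloc, Cul2 and Rbx1) were not called. With median-ratio scaling, 7 genes of the list were higher and 2 lower, against 3603 and 3622 of all 13749 tested genes.

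Genes for the production and transport of lactate, the ligand of NDRG3 protein, were examined next. Of 6 tested genes, 4 rose and 1 fell, against 17.9% and 36.1% of all tested genes, and 1 was not called (median log2 fold change 0.53). Ldha, the lactate dehydrogenase subunit that favours lactate formation, stood at 1208, 1048 and 1169 TPM in normoxia and 2336, 2390 and 2485 TPM in hypoxia, a rise of 1.08 on the log2 scale (adjusted p = 2.16e-05). The groups were well separated. Ldhb, the subunit that favours the reverse reaction, fell from 9.19 ± 1.53 to 2.78 ± 0.362 TPM (log2 fold change -1.42, adjusted p = 0.000243). Bsg, the chaperone of lactate transporters, rose from 1350 ± 75.3 to 4859 ± 18.2 TPM (log2 fold change 1.85, adjusted p = 1.28e-06), and the transporter gene Slc16a1 rose by 0.25 (adjusted p = 0.00547). The lactate exporter gene Slc16a3 was at 217 ± 18.2 TPM in normoxia, with a highest library of 236.3 TPM, and at 477.2, 236.2 and 492.4 TPM in hypoxia, so the second hypoxia library lay within the normoxia range. Its call (log2 fold change 0.81, adjusted p = 0.0400) was lost without any one library except the second of hypoxia, at adjusted p values up to 0.119.

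The RAF-ERK cascade is the pathway that lactate-bound NDRG3 engages. Of 19 tested genes, 4 rose and 8 fell, against 17.9% and 36.1% of all tested genes, and 7 were not called. The median log2 fold change was -0.13, close to the middle of all tested genes. With median-ratio scaling the split was 8 higher and 7 lower, against 3603 and 3622 of all 13749 tested genes. Braf rose by 0.47 on the log2 scale (adjusted p = 0.00715), and Araf was not called. Map2k1, which encodes the kinase MEK that activates ERK, rose by 0.70 (adjusted p = 2.23e-05). Dusp6, an ERK phosphatase whose transcription follows ERK activity, fell from 81.6 ± 0.919 to 28.2 ± 1.35 TPM (log2 fold change -1.50, adjusted p = 3.97e-06). Dusp5 fell by 0.95 (adjusted p = 9.34e-05) and Rps6ka2 fell by 0.58 (adjusted p = 0.000370), whereas Dusp4 rose by 0.31 (adjusted p = 0.00891). Braf overlaps Ndufb2 on the other strand, and without strand information reads of the pair could not be told apart.

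The kinases that phosphorylate NDRG1 and the TORC2 complex that activates SGK1 did not move together. Of 12 tested genes, 2 rose and 4 fell, against 17.9% and 36.1% of all tested genes, and 6 were not called (median log2 fold change 0.02). Sgk1 was at 103.7, 121.2 and 111.7 TPM in normoxia and at 43.5, 40.9 and 46.2 TPM in hypoxia. The hypoxia libraries all lay below the normoxia libraries, with a log2 fold change of -1.34 (adjusted p = 2.24e-05). Rictor, the defining subunit of TORC2, rose from 24.0 ± 2.22 to 45.7 ± 1.83 TPM (log2 fold change 0.90, adjusted p = 0.000132). Gsk3b rose by only 0.21 (adjusted p = 0.0257), Mapkap1 fell by 0.50 (adjusted p = 0.0223) and Mtor fell by 0.41 (adjusted p = 0.0378). Sgk3, at 3.63, 4.13 and 7.61 TPM in normoxia and 2.60, 3.10 and 2.38 TPM in hypoxia, was at adjusted p = 0.0489.

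Of these 6 calls, Sgk1 and Rictor held in every alternative that was run. Without the second or the third normoxia library or the third hypoxia library, 3 of the 6 calls were left. The Sgk3 call was lost without any one library except the first of normoxia (adjusted p up to 0.123), the Gsk3b call without the second or the third library of either group (up to 0.0785), the Mtor call without the first or the third library of either group (up to 0.110) and the Mapkap1 call without the second normoxia library (0.0664). With median-ratio scaling, 5 genes of the list were higher and 1 lower, against 3603 and 3622 of all 13749 tested genes. Sgk3, Mtor and Mapkap1 each overlap a small gene or pseudogene.

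**Figure D3:**
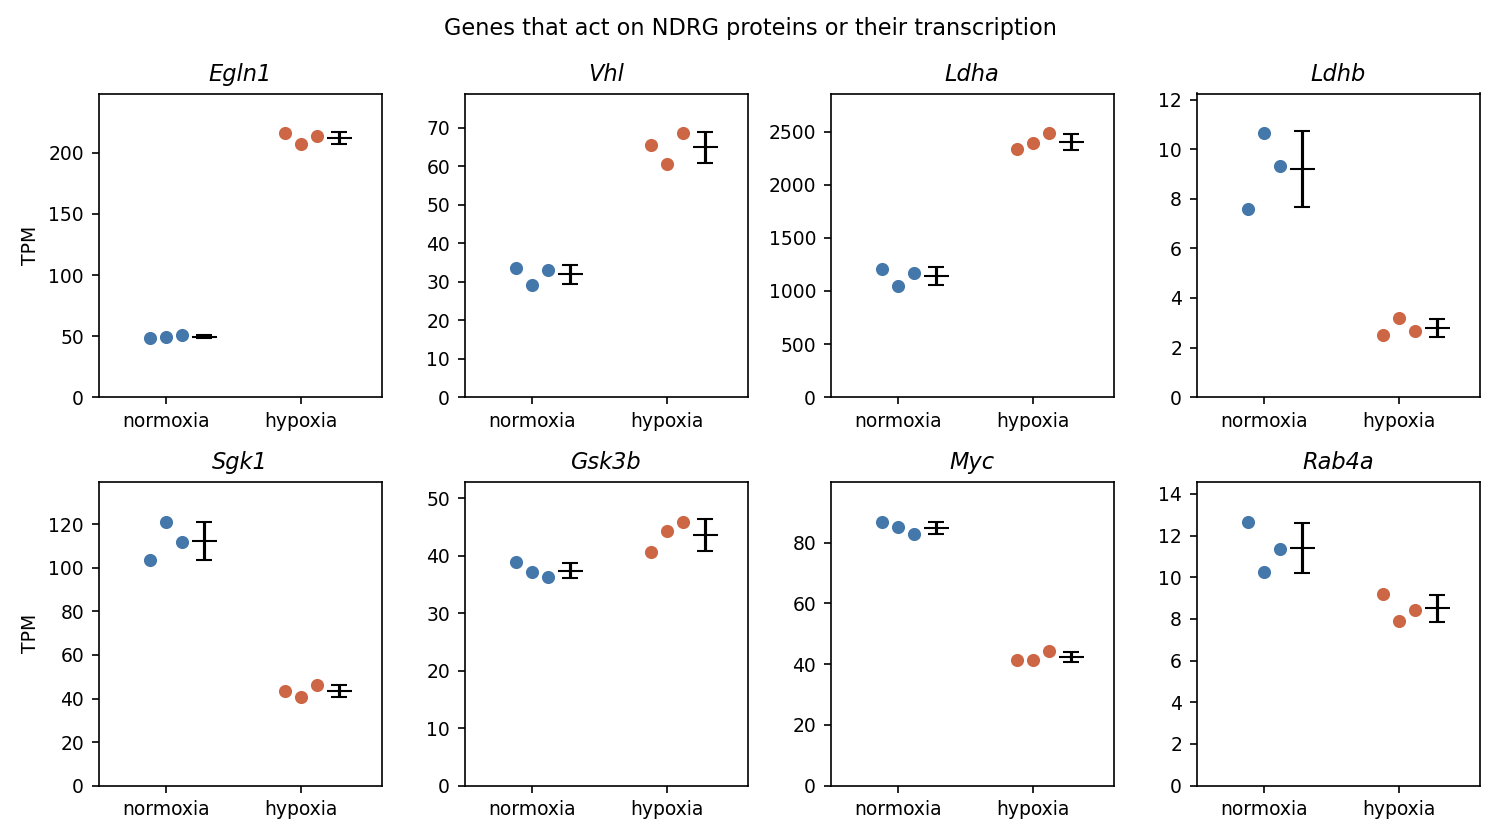
Levels in TPM (vertical axes from 0, each with its own range) of 8 genes that act on NDRG proteins or their transcription, in 3 normoxia and 3 hypoxia libraries. Points are libraries, and bars are the mean and SD. Egln1, Vhl and Ldha are higher in all hypoxia libraries, Ldhb, Sgk1, Myc and Rab4a lower, and the Gsk3b groups lie close together.

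MYC and its partners were examined because MYC represses Ndrg1, as the name of the family records for N-MYC. Of 12 tested genes, 5 rose and 4 fell, against 17.9% and 36.1% of all tested genes, and 3 were not called (median log2 fold change -0.06). Myc fell from 84.9 ± 2.03 to 42.3 ± 1.66 TPM (log2 fold change -0.99, adjusted p = 1.61e-05). Mycn, the gene in the family's name, had at most 0.0335 TPM in any library and was not tested. Mycl, another MYC gene, fell by 1.02 (adjusted p = 0.00279). Mxi1 and Mnt, which compete with MYC for MAX and repress transcription, rose by 1.11 (adjusted p = 2.21e-05) and 1.04 (adjusted p = 2.41e-05), and Mga, another MAX partner, rose by 0.43 (adjusted p = 0.00146). Mxd3 fell by 0.41 (adjusted p = 0.00305), but it overlaps the abundant Prelid1 on the other strand. Max itself was at 44.9 ± 0.900 and 43.9 ± 1.08 TPM, with a log2 fold change of -0.03 that turned to 0.11 with median-ratio scaling and 0.085 with quantile scaling, and it was not called on any of these scales.

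Of 13 other regulators of Ndrg1 transcription, 4 rose and 8 fell, against 17.9% and 36.1% of all tested genes, and 1 was not called. The median log2 fold change was -0.57. Egr1 fell by 1.48 (adjusted p = 2.12e-06) and Junb fell by 1.58 (adjusted p = 3.97e-06), both immediate-early transcription factors that activate genes after growth signals. Trp53, which encodes p53, an activator of Ndrg1, fell from 3244 ± 96.7 to 1973 ± 39.2 TPM (log2 fold change -0.72, limma adjusted p = 1.44e-05). The line was derived with a mutant p53, and reads of mutant and native p53 were not told apart. This level therefore does not measure the native activator alone. Sp1, a general activator, rose by 0.52 (adjusted p = 0.000143) and the histone methyltransferase gene Ezh2 by 0.46 (adjusted p = 0.00859).

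Most other targets of hypoxia-inducible factor (HIF) rose beside Ndrg1. Of 24 tested genes, 21 rose, against 17.9% of all tested genes, 0 fell, and Pfkfb3, Plin2 and Stc2 were not called. Their median log2 fold change was 1.72, below the 2.94 of Ndrg1 and above the 0.50 of Ndrg3. Ero1l, an oxidase of the endoplasmic reticulum, rose from 45.5 ± 1.48 to 603 ± 9.11 TPM (log2 fold change 3.70, limma adjusted p = 1.23e-07). It was the one gene of the list with a larger log2 fold change of TPM + 1 than Ndrg1. That depends on the pseudocount, since by the plain ratio of mean TPM Adm (10.3) and Bhlhe41 (9.19) also exceeded Ndrg1 (7.78). Bnip3, a mitophagy receptor, rose by 1.74 and Bhlhe40, a transcriptional repressor, by 1.88, each with an adjusted p of 1.12e-06. Pgk1, a glycolytic enzyme, rose by 1.49 with the same adjusted p.

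**Figure D4:**
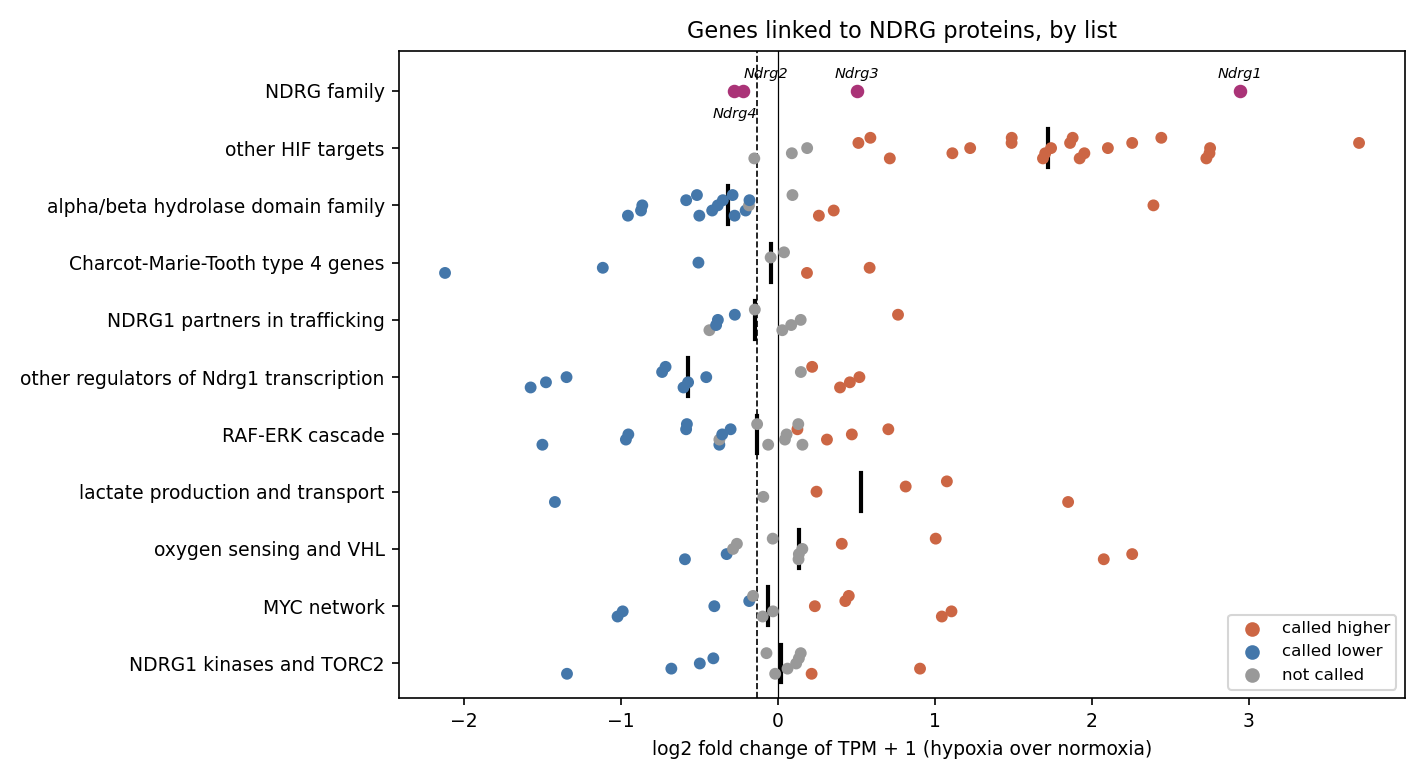
Log2 fold change of TPM + 1, hypoxia over normoxia (horizontal axis), for each tested gene of 10 lists and for the NDRG genes, which carry no call. Points are genes, coloured by the limma call, black bars are list medians, and the dashed line is the median of all tested genes. The HIF targets cluster near 1.72, the hydrolase family lies mostly below 0, and the NDRG genes span from -0.28 to 2.94.

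Of 9 tested genes for partners of NDRG1 in endosomal trafficking, 1 rose and 3 fell, against 17.9% and 36.1% of all tested genes. The other 5 were not called, and the median log2 fold change was -0.15. Rab4a, the small GTPase of recycling endosomes that binds NDRG1, fell from 11.4 ± 1.20 to 8.51 ± 0.644 TPM (log2 fold change -0.38, adjusted p = 0.0158). That call was lost without the first normoxia or the second hypoxia library (adjusted p up to 0.0517) and with median-ratio scaling (0.0677). Rab4b fell by 0.28 (adjusted p = 0.00977, and 0.0980 with median-ratio scaling), and Cd82, a metastasis suppressor linked to NDRG1, fell by 0.39 (adjusted p = 0.00474). With median-ratio scaling, 4 genes of the list were higher and 1 lower, against 3603 and 3622 of all 13749 tested genes. Both Rab4 genes share bases with a readthrough gene model on the same strand (Gm20388 and Gm21983), so their levels are uncertain.

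Other genes of recessive demyelinating Charcot-Marie-Tooth disease, the group to which human NDRG1 belongs, were present in part. Of 10 genes, 7 were tested. Of these, 2 rose and 3 fell, against 17.9% and 36.1% of all tested genes, and 2 were not called (median log2 fold change -0.05). Prx, the gene of the Schwann cell protein periaxin, fell from 11.1 ± 0.531 to 4.60 ± 0.260 TPM (log2 fold change -1.12, adjusted p = 7.33e-05). Egr2, the transcription factor of myelinating Schwann cells, fell from 5.62 ± 2.47 to 0.457 ± 0.0104 TPM (log2 fold change -2.12, adjusted p = 0.000512). Fig4, a phosphoinositide phosphatase, fell by 0.51 (adjusted p = 0.000646), and Sbf2, a myotubularin-related protein, rose by 0.58 (adjusted p = 0.000671). Its relative Sbf1 rose by 0.18 (adjusted p = 0.0319), a call lost without the first or the third normoxia or the second or the third hypoxia library (adjusted p up to 0.0956). The 8 Schwann cell markers, which include Prx, summed to 44.7 to 50.7 TPM in normoxia and 31.9 to 34.3 TPM in hypoxia, and their part in these values was not tested.

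The alpha/beta hydrolase domain (ABHD) genes share the fold of the NDRG proteins, but most encode active lipases or thioesterases. Of 18 tested genes, 3 rose and 13 fell, against 17.9% and 36.1% of all tested genes, and 2 were not called. The median log2 fold change was -0.32, against -0.13 for the middle tested gene. With median-ratio scaling 3 were higher and 8 lower, against 3603 and 3622 of all 13749 tested genes. Abhd18 was the exception in size, rising from 2.08 ± 0.618 to 15.0 ± 1.01 TPM (log2 fold change 2.39, adjusted p = 4.99e-05). It overlaps 6430590A07Rik on the other strand, whose own mean level was 0.688 TPM in normoxia and 1.85 TPM in hypoxia. Abhd16a rose by 0.26 (adjusted p = 0.0141) and Abhd14b by 0.35 (adjusted p = 0.0309), the latter call being lost without any one library except the first of hypoxia (adjusted p up to 0.0892). Abhd2 fell by 0.59 (adjusted p = 0.000119), Abhd3 fell by 0.87 (adjusted p = 0.000425) and Abhd1 fell by 0.86 (adjusted p = 0.000448), the last of which overlaps Preb.

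The genes whose pattern over the 6 libraries was nearest to each member were found by the Euclidean distance between profiles of log2(TPM + 1), each centred on its own mean. This distance includes the difference between the groups. Fold changes near that of the member therefore follow from the choice, and nothing is read from them. For Ndrg1 they were Ankrd37 (distance 0.393), Smtnl2, Bhlhe41, Gm24561 and Adm, with log2 fold changes of 2.68 to 2.79. Smtnl2 (mean 0.179 TPM in normoxia and 6.55 TPM in hypoxia) and the miRNA gene Gm24561 (0.00528 and 5.99 TPM) passed the filter only through hypoxia. Their fold changes depend strongly on the pseudocount. Ankrd37, Bhlhe41 and Adm are also in the list of HIF targets. All of these genes were far less abundant than Ndrg1: Ankrd37, at 61.9 ± 2.21 TPM in hypoxia, was the most abundant of the 5, and it overlaps Ufsp2. For Ndrg3 they were Cd68 (distance 0.0559), Fzd7, Mphosph6, Zfp511 and Neurl1a, with log2 fold changes of 0.46 to 0.49. Cd68, a lysosomal protein, is also a macrophage marker, but the 6 macrophage markers together summed to 25.0 to 29.1 TPM in normoxia and 20.1 to 21.6 TPM in hypoxia. For Ndrg2 they were Fuk (distance 0.0992), Ccnt1, C1ql4, Slc35e4 and Cep164, with log2 fold changes of -0.28 to -0.15, and for Ndrg4 they were Gm5526 (distance 0.150), Gm6254, Cipc, H3f3c and 4930579K19Rik, with log2 fold changes of -0.35 to -0.17. Among the Ndrg4 genes, 3 are pseudogenes.

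Genes next to the NDRG loci were listed to see whether a difference was shared along the chromosome. Within 200 kb of the 4 genes, 31 genes were tested, with a median log2 fold change of -0.19. Of these, 4 were called higher and 12 lower, against 17.9% and 36.1% of all tested genes, and 15 were not called. Nothing is read from this count. Values are given below for the nearest tested gene on each side only, and the 4 called higher are not among these. They were Dsn1, 3.21 kb from Ndrg3, and Cnot1, Sap18b and Csnk2a2 near Ndrg4. On either side of Ndrg1 the neighbours were lower. Ccn4, a matricellular protein gene 6.12 kb away, fell from 38.9 ± 3.18 to 12.4 ± 0.965 TPM (log2 fold change -1.57, adjusted p = 2.24e-05), and St3gal1, a sialyltransferase gene 133 kb away, fell by 0.53 (adjusted p = 0.00130). Next to Ndrg3, the pseudogene Gm14276, 2.12 kb away, was not called (log2 fold change 0.0057), and Sla2, 40.2 kb away, fell by 0.66 (adjusted p = 0.00134) but overlaps Rab5if. Next to Ndrg2, Mettl17 fell by 0.58 (adjusted p = 0.00432) and Arhgef40 fell by 0.45 (adjusted p = 0.0143). Beside Ndrg4, Gins3 fell by 0.39 (adjusted p = 0.00647), and Setd6, 0.796 kb away, fell by 0.45 (adjusted p = 0.0256), a call lost without the first or the second normoxia or the first hypoxia library (adjusted p up to 0.0781).

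**Figure D5:**
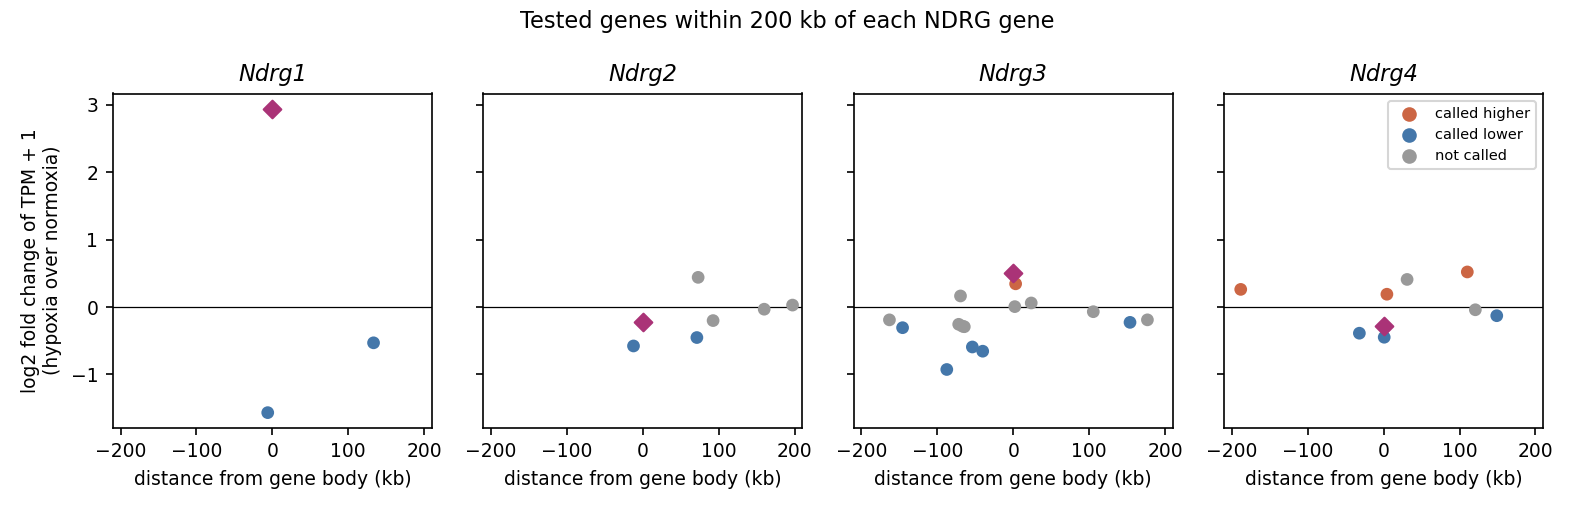
Log2 fold change of TPM + 1, hypoxia over normoxia (vertical axis), of tested genes within 200 kb of each NDRG gene, against the distance from the gene body in kb (horizontal axis, negative toward lower coordinates). Circles are neighbours, coloured by the limma call, and the purple diamond at 0 is the NDRG gene, which carries no call. Both neighbours of Ndrg1 lie below 0, at -1.57 and -0.53, while Ndrg1 is at 2.94.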

How the data were processed

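Values of polyadenylated RNA sequencing were used for 3 normoxia and 3 hypoxia libraries of GC-2spd cells. According to the submitters' processing notes and the methods, the authors trimmed reads with cutadapt, aligned them to mm10 with HISAT2 and quantified genes with StringTie; versions and the annotation release are not given in the sources used here. The deposited coverage is an unscaled signal, the mean read depth over the transcripts of a gene. The deposited FPKM is scaled for length and aligned fragments. The deposited TPM lists assembled loci, which sum to 1000000 in each library, and separately annotated genes, which sum to 948283.6 to 981417.5, so that 1.86% to 5.17% was not assigned to annotated transcripts. The design assumed a plain TPM table, and the annotated genes were used without rescaling. The authors tested counts with edgeR. Counts were not used here, so limma took its place, and no counting interval was calculated.

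Of 43432 gene IDs, 42462 matched a symbol of GENCODE mouse release M21, and values of repeated symbols were summed. A mean TPM of 1 or more was required, which left 13749 genes, and limma 3.58.1 in R 4.3.3 was run on log2(TPM + 1) (variance trend, 2-sided, Benjamini-Hochberg threshold 0.05). The pseudocount shrinks fold changes of low genes. The steps were tested on simulated data. The members and the lists of genes were chosen with earlier results of these data known. Named were all members, their direct regulators whatever their values, up to 3 genes per list and direction by adjusted p, the 5 genes nearest in pattern to each member, and the nearest tested neighbour on each side; some genes that this rule names are not reported here. The genes not called, the overlapping genes and the neighbours called higher were named after their values were seen. Promoter windows are from RefSeq (GRCm38.p6). A planned comparison of protein sequences was not run.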

Additional observations from a re-analysis of the deposited data

Results flagged for a closer look

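Gm2895, a long noncoding RNA that starts beside Ndrg1 on the opposite strand (chr15:66969323-67013039) and overlaps its first bases, stood out because it lies outside the comparisons and was higher than in the control libraries, at a mean of 0.128 TPM in hypoxia (0.0405, 0.125 and 0.217 TPM) against 0, 0.0198 and 0 TPM in normoxia. It was not tested, its level was under the filter, and without strand information its reads in the overlap could not be told apart from those of Ndrg1.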

How the results depend on the processing

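The direction of each member's difference was the same in every alternative run (pseudocount 0.1, other filters, FPKM, median-ratio and quantile scaling, no variance trend, protein-coding genes only, assembled loci, and each library left out), except that Ndrg4 had no value at a mean TPM of at least 5. Median-ratio scaling gave log2 fold changes of 3.09 for Ndrg1, 0.64 for Ndrg3 and -0.088 for Ndrg2, and quantile scaling -0.024 for Ndrg2. With single libraries left out, values ranged from 2.88 to 2.98 for Ndrg1, 0.43 to 0.58 for Ndrg3, -0.27 to -0.13 for Ndrg2 and -0.43 to -0.12 for Ndrg4. The NDRG1 kinase and TORC2 list had 3 calls without a filter and 3 to 5 with a library left out. Quantile scaling called 10 genes of the oxygen sensing list and 10 hydrolase genes, beside 3575 higher and 3639 lower of all 13749 tested genes. Within 100 kb there were 10 called neighbours. Of genes not called, Gm14276 turned to -0.040 in FPKM and ranged from -0.10 to 0.062 with a library left out, reaching -0.086 without the first normoxia library. H3f3c turned to 0.0020 with quantile scaling, and Max to 0.11, 0.085 and 0.0036 with median-ratio scaling, quantile scaling and protein-coding genes only. The causes were not tested. With the replicate number as a block, 2281 genes were called higher and 4674 lower, and the kinase list had 2 calls. Same-numbered libraries deviated from their group means with correlations of 0.026, 0.033 and 0.011, and unlike-numbered ones with -0.054 to 0.026. No pairing by number was seen, but these values cannot show how the libraries were made. With quantile scaling the calls of Gins3 (adjusted p = 0.130) and Arhgef40 (0.0754) were lost. Depth as counts is unknown, which limits Ndrg4 and Gm2895 most, and 3 libraries per group limit every error.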
